A study of Mus musculus with 6 samples.

Results

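Chondrocytes of the fracture callus were defined as nuclei carrying transcripts of the cartilage matrix genes Hapln1, Col2a1, Col9a1, Col9a3 and Acan, and 358 of 8073 filtered nuclei met this definition. A nucleus was kept when the unique molecular identifiers (UMIs, 1 per captured transcript) of the 5 genes summed to 5 or more and to at least 0.3% of its UMIs, and when it held no UMI of the immune gene Ptprc or the endothelial gene Pecam1. Nuclei came from the tibial periosteum of C57BL6 mice aged 12 weeks, with males and females mixed, and each library was a pool of mice, 4 without injury and 4 to 9 after fracture. After fracture the sampled tissue was the periosteum with the hematoma or callus, collected at days 3, 5 and 7, and nuclei were sorted with Sytox before droplet-based sequencing. There were 2 uninjured libraries, 2 day 3 libraries, 1 day 5 library and 1 day 7 library.

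Fracture callus cartilage is a transient tissue. Its chondrocytes arise from periosteal progenitors under the SOX trio of transcription factors, deposit type II collagen and the proteoglycan aggrecan, and then enlarge, switch to type X collagen and are replaced by bone. Indian hedgehog, parathyroid hormone-related peptide, BMP and FGF signals pace the same sequence in the growth plate. In callus healing the cells that come before chondrocytes make a fibrous matrix rich in periostin and in collagens of types I, III and V.

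The nuclei were nearly all from days 5 and 7. The filtered nuclei that met the definition were 1 of 644 (0.155%, exact 95% binomial interval 0.00393 to 0.862%) and 0 of 1182 (interval 0 to 0.312%) in the uninjured libraries. At day 3 they were 0 of 753 (interval 0 to 0.489%) and 3 of 1720 (0.174%, interval 0.0360 to 0.509%). Taken as 3 counts of the total, the limit that a count of 0 allows was 0.254% in the second uninjured library and 0.398% in the first day 3 library. Means were 0.0776% ± 0.110 without injury and 0.0872% ± 0.123 at day 3 (SD, n = 2 libraries each). At day 5 they were 133 of 2423 (5.49%, interval 4.62 to 6.47%) and at day 7 they were 221 of 1351 (16.4%, interval 14.4 to 18.4%). Binomial and Poisson intervals given here cover counting error only.

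**Figure D1:**
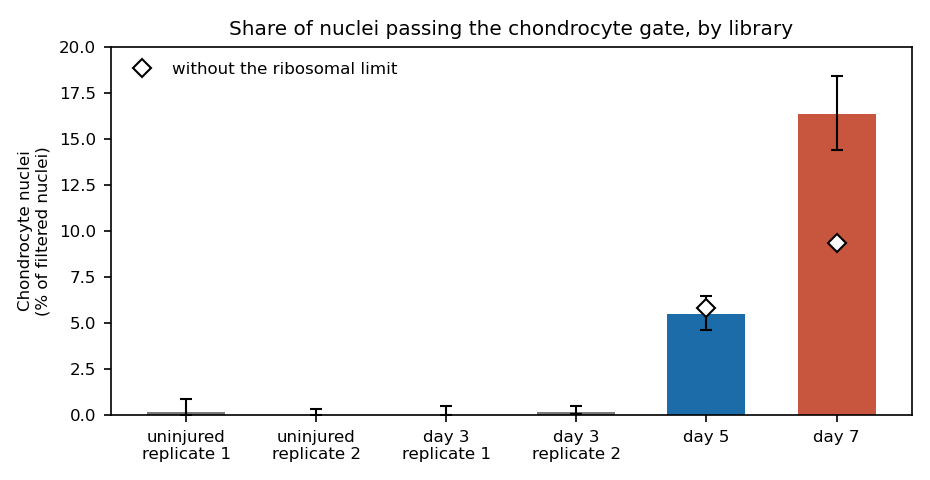
Share of filtered nuclei (%) that met the chondrocyte definition in each of the 6 libraries (bars), with exact 95% binomial intervals. Open diamonds give the day 5 and day 7 shares without the ribosomal limit, 5.79% and 9.35%. The uninjured and day 3 libraries lie at or below 0.174%, day 5 at 5.49% and day 7 at 16.4%.

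Days 5 and 7 had 1 library each, so a difference between them has no replicate check, day and library cannot be told apart, and no p-value is given. The step in share at day 7 also depended on a quality limit. Of the 3448 barcodes of the day 7 library 2096 exceeded the limit of 1.5% ribosomal protein UMIs, against 100 of 2536 at day 5, and without that limit the day 7 share was 9.35%. A smaller denominator without nuclei carrying at least 3 of 6 muscle markers gave 6.02% at day 5 and 19.5% at day 7.

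Total UMIs per library ranged from 1499281 to 29796296. The chondrocyte nuclei were deeper at day 5, with a median of 4645 UMIs and 2054 genes, than at day 7, with 1720 UMIs and 917 genes. Their median ribosomal protein share was 0.519% at day 5 and 0.148% at day 7. No barcode of a chondrocyte nucleus was shared between libraries.

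The 5 defining genes took a median of 1.18% of the UMIs of a chondrocyte nucleus at day 5 (range 0.308 to 5.62%) and 1.26% at day 7 (0.340 to 3.21%), and the nuclei were chosen by these values. At its edge, 9 nuclei at day 5 and 3 at day 7 had a share of 0.30 to 0.35%, and 8 and 3 nuclei that otherwise qualified lay just outside at 0.25 to 0.30%. The class is a range cut from a score, and no clustering was run to set it apart.

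Genes that were not used to choose the nuclei were set against the label, beside fibrogenic nuclei of the same library, which were chosen in the same way with Postn, Aspn, Col3a1, Col5a1 and Col8a1 (779 nuclei at day 5 and 259 at day 7). Of 11 other chondrocyte markers that could be compared on both days, 10 were at least 2-fold higher in chondrocyte nuclei on both days, where 5.80% of 4532 genes were (7.07% of 9294 genes at day 5 and 8.52% of 4543 at day 7 taken alone). The exception was Matn4, at 134 against 99.6 CPM at day 7. Matn3, a matrilin that links cartilage matrix fibrils (chr12:8947929-8972028, GRCm38), stood at 1026 counts per 1000000 UMIs (CPM) at day 5 and 963 at day 7, against 25.4 and 30.2 in fibrogenic nuclei. Cnmd, chondromodulin, which keeps cartilage free of vessels, stood at 472 and 432 CPM against 5.91 and 12.1. Markers of other cells were also summed. Osteoblast markers were higher in chondrocyte nuclei than in all other nuclei, at 652 CPM at day 5 and 639 CPM at day 7 against 231 and 140. Leaving out Ptprc and Pecam1, which are at 0 by definition, immune markers summed to 22.6 and 25.4 CPM against 687 and 233, and endothelial markers to 50.5 and 34.5 CPM against 649 and 369. Pericyte markers summed to 102 and 32.7 CPM against 251 and 188, osteoclast markers to 34.6 and 23.6 CPM against 173 and 134, and adipocyte markers to 23.9 and 10.9 CPM against 87.0 and 75.5. Closer to the other nuclei were Schwann cell markers, at 31.9 and 38.1 CPM against 54.9 and 57.2, and tendon markers, at 239 and 154 CPM against 281 and 184. Stem and progenitor markers summed to 10.6 and 5.45 CPM against 62.5 and 37.5. Muscle markers summed to 692 and 696 CPM in chondrocyte nuclei, against 2567 and 10651 in all other nuclei, and their part in the results was not tested.

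By the ratio to fibrogenic nuclei on the day where it was smaller, the 15 leading genes among 2935 were Scin, Scube1, Dqx1, Clec3a, Usp29, Wscd2, Proser2, Cnmd, Matn3, Bmp6, Kcna6, F13a1, Car8, Susd5 and Ccdc88c. Scin encodes the actin-severing protein scinderin and was at 151 CPM at day 5 and 191 at day 7. Fibrogenic nuclei had 1.97 and 1.51 CPM, on only 8 UMIs at day 5 and 1 at day 7. The log2 ratios were 6.26 (counting interval 5.24 to 7.51) and 6.98 (4.47 to 12.3). Bmp6, a bone morphogenetic protein of maturing chondrocytes (chr13:38345107-38500302), was at 553 and 759 CPM against 19.0 and 19.6, log2 ratios of 4.87 and 5.27. F13a1, the catalytic subunit of coagulation factor XIII, was at 436 and 779 CPM, against 15.8 and 12.1 in fibrogenic nuclei but 1644 and 658 in immune nuclei. Dqx1 was at 446 CPM at day 5 in only 22 nuclei and at 74.5 CPM at day 7 in 8 nuclei. Whether strand was used in counting is not given in the sources used here, so reads of genes that overlap on opposite strands may not be told apart. This holds for Bmp6, opposite Txndc5, for Usp29, which overlaps other transcripts at the Peg3 locus, and below for Col10a1, opposite Nt5dc1, Runx2, opposite Supt3, and Pth1r, opposite the muscle myosin gene Myl3.

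**Figure D2:**
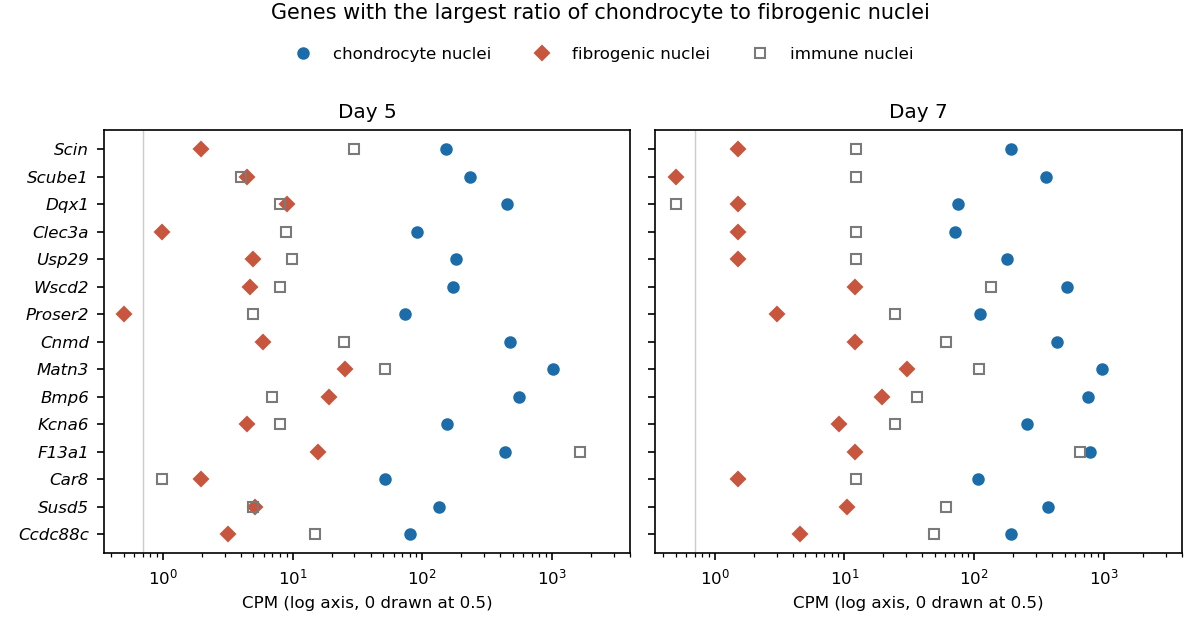
CPM (log axis, 0 drawn at 0.5) of the 15 genes with the largest ratio of chondrocyte to fibrogenic nuclei, at day 5 and day 7, in chondrocyte, fibrogenic and immune nuclei. In 14 of the 15 genes the chondrocyte value is the highest on both days, and for F13a1 immune nuclei are higher at day 5, at 1644 against 436 CPM.

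Day 7 was then compared with day 5 within chondrocyte nuclei, for 4853 genes outside the defining genes with at least 40 UMIs over both days. At least 2-fold higher at day 7 were 160 genes (3.30%) and at least 2-fold lower were 661 (13.6%), with a median log2 ratio of -0.21. The 2-fold limit is a limit of size and not a test. In fibrogenic nuclei 73 of 4790 genes (1.52%) were higher and 325 (6.78%) lower. The split moved with the scaling: a trimmed mean (TMM) factor shifted all ratios by 0.23 on the log2 scale and gave 284 higher and 422 lower genes, so that 40.2% of the called genes were higher in place of 19.5%. Bracketed ranges below are exact 95% counting intervals of a log2 ratio.

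Genes of hypertrophy and mineralization lay mostly on the higher side at day 7. Of 24 members 17 were tested, 4 were at least 2-fold higher (3.30% of all genes) and 0 at least 2-fold lower (13.6% of all genes), with a median log2 ratio of 0.54 in chondrocyte and -0.41 in fibrogenic nuclei. Col10a1, type X collagen and the defining product of hypertrophic chondrocytes (chr10:34389981-34397085), was at 129 CPM in 13 nuclei at day 5 and 191 CPM in 36 nuclei at day 7, a log2 ratio of 0.56 [0.15 to 0.98]. Vegfa, which draws vessels into cartilage, went from 78.4 to 234 CPM (1.58 [1.12 to 2.05]), and its ratio in fibrogenic nuclei was -0.36.

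Runx2, the transcription factor required for hypertrophy and for bone formation (chr17:44495987-44814797), was at 1915 CPM at day 5 and 3073 CPM at day 7, a log2 ratio of 0.68 [0.58 to 0.78], with -0.53 in fibrogenic nuclei. Phex, an endopeptidase of mineralizing tissue, went from 51.8 to 183 CPM (1.82 [1.28 to 2.40]) and Alpl, the alkaline phosphatase that frees phosphate for mineral, from 278 to 405 CPM (0.54 [0.27 to 0.82]). Of the 17 tested members of the hypertrophy list 12 were higher and 5 lower at day 7. The intervals of 2 members lay below 0, those of Ibsp and Sp7. The osteoblast list shares Runx2, Phex, Alpl, Ibsp and Sp7 with the hypertrophy list, among others. Ibsp, bone sialoprotein, was at 274 and 178 CPM (-0.62 [-0.98 to -0.27]) and Sp7, the osteoblast factor osterix, at 97.0 and 56.3 CPM (-0.79 [-1.44 to -0.16]). Of the 16 genes of the osteoblast list 8 were tested, with 1 at least 2-fold higher (3.30% of all genes), 2 at least 2-fold lower (13.6%) and a median of -0.70, beside -0.89 in fibrogenic nuclei. At equal depth 2 members were left, with a median of 0.54.

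Growth plate signalling genes had a median log2 ratio of 0.42, against -0.10 in fibrogenic nuclei and -0.21 over all genes. Of 39 members 22 were tested and 19 were higher at day 7. At least 2-fold higher were 4 (3.30% of all genes), Ihh, Gli2, Npr2 and Frzb, and at least 2-fold lower were 0 (13.6% of all genes). At equal depth per nucleus 12 members were tested, of which 0 were at least 2-fold higher and 1 lower, with a median of 0.42. In the hedgehog branch the ligand Ihh was at 22.6 CPM at day 5 and 52.7 CPM at day 7 on 17 and 29 UMIs (1.22 [0.31 to 2.18]), its receptor Ptch1 at 429 and 723 CPM (0.75 [0.54 to 0.97]), and the effector Gli2 at 49.2 and 153 CPM (1.63 [1.06 to 2.23]). At that depth the ratio of Ihh was -0.25 and that of Npr2, the receptor of C-type natriuretic peptide, -0.055.

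Pth1r, the receptor of parathyroid hormone-related peptide, was at 562 CPM at day 5 and 899 CPM at day 7 (0.68 [0.49 to 0.87]), with -0.67 in fibrogenic nuclei. Frzb, a secreted Wnt antagonist, was at 73.1 and 203 CPM (1.48 [1.00 to 1.97]). Fgfr1 was at 149 and 274 CPM (0.88 [0.52 to 1.25]) and Fgfr3, the FGF receptor that restrains growth plate chondrocytes, at 170 and 234 CPM (0.46 [0.10 to 0.83]).

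**Figure D3:**
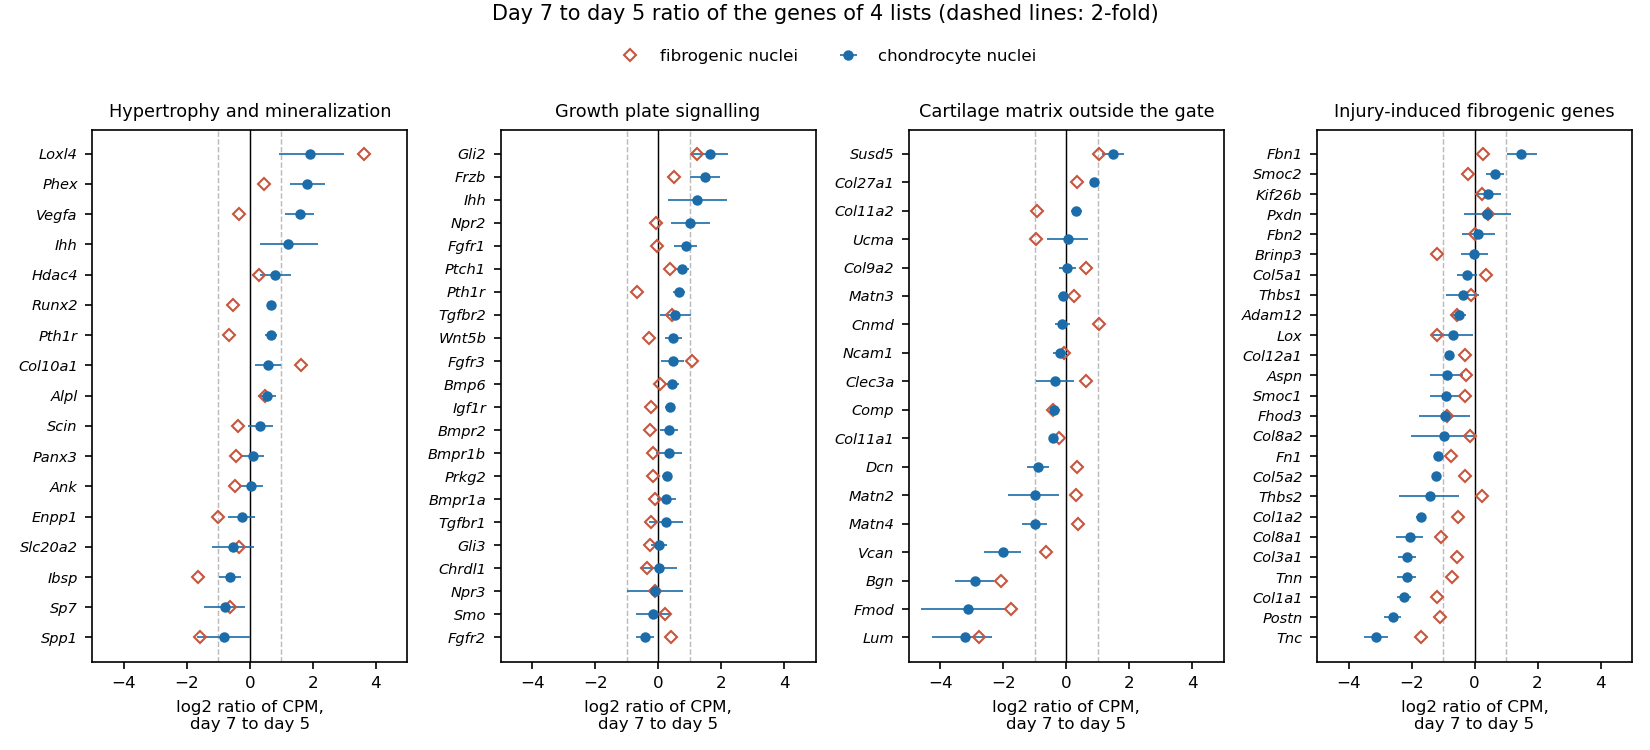
Log2 ratio of CPM at day 7 to day 5 for the tested genes of the hypertrophy, growth plate, cartilage matrix and fibrogenic lists, with filled circles and exact 95% counting intervals for chondrocyte nuclei and open diamonds for fibrogenic nuclei (drawn where both days have a UMI). Growth plate genes lie mostly right of 0 (median 0.42) and fibrogenic genes mostly left (median -0.91).

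Fibrogenic genes were lower at day 7 inside the chondrocyte nuclei. Of 28 members 25 were tested. At least 2-fold lower were 10 (13.6% of all genes) and at least 2-fold higher was 1 (3.30% of all genes), the fibrillin gene Fbn1. The median was -0.91 in chondrocyte and -0.32 in fibrogenic nuclei, and the latter includes the 5 genes that chose those nuclei. The summed level of the list was 20031 CPM at day 5 and 8236 CPM at day 7, against 33803 and 22326 CPM in fibrogenic nuclei. In immune nuclei, which should lack most of these genes, the list summed to 7862 CPM at day 5 and 2827 CPM at day 7, and the part of free RNA in the chondrocyte values was not tested. Postn, which encodes the matricellular protein periostin (chr3:54361109-54391037), went from 1498 to 247 CPM (-2.60 [-2.87 to -2.34]), with -1.11 in fibrogenic nuclei. Because Postn is among the genes that chose the fibrogenic nuclei, its fall there is limited by that choice.

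Tnc, the matrix glycoprotein tenascin C, went from 983 to 113 CPM (-3.13 [-3.53 to -2.75]). Col1a1, the main collagen of bone and fibrous tissue, went from 1798 to 380 CPM (-2.24 [-2.46 to -2.03]), and Fn1, fibronectin, from 3840 to 1727 CPM (-1.15 [-1.26 to -1.05]). Against fibrogenic nuclei, 18 of 27 genes of the list were at least 2-fold lower on both days (8.61% of all genes), and 5 of the list defined the fibrogenic nuclei, so that those are fixed by that choice.

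Shares of nuclei were compared at equal depth, with every nucleus thinned at random to 500 UMIs and none left out. With a Postn UMI were 27.8% of chondrocyte nuclei at day 5, 66.0% of fibrogenic and 12.4% of immune nuclei (64.7%, 92.6% and 30.0% before thinning, at medians of 4645, 4209 and 2440 UMIs). At day 7 the shares were 9.05%, 49.4% and 9.09% (24.9%, 81.5% and 12.1% before thinning, at medians of 1720, 1990 and 1886 UMIs). The shares in fibrogenic nuclei are raised on both days by the choice of those nuclei, which used Postn. Immune nuclei should lack Postn. The thinned day 7 share in chondrocyte nuclei was no higher than theirs, which rests on 3 of 33 nuclei (interval 1.92 to 24.3%), while before thinning it was higher.

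Pth1r UMIs were found in 27.1% and 33.0% of thinned chondrocyte nuclei at days 5 and 7, against 0.326% and 3.03% of immune nuclei (66.2%, 62.9%, 11.7% and 12.1% before thinning). Peg3, an imprinted zinc finger gene, was found in 45.1% and 58.4%, against 2.61% and 9.09% of immune nuclei (83.5%, 87.3%, 9.45% and 21.2% before thinning). Col10a1 was found in 2.26% (interval 0.468 to 6.45%) and 9.50% (5.98 to 14.2%), and in 0 immune nuclei on either day (9.77%, 16.3%, 0.326% and 3.03% before thinning). The thinned immune shares at day 7 rest on 33 nuclei, 1 with Pth1r, 3 with Peg3 and 0 with Col10a1. For Col10a1 the upper limit of that share was 10.6%, above the share in chondrocyte nuclei.

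**Figure D4:**
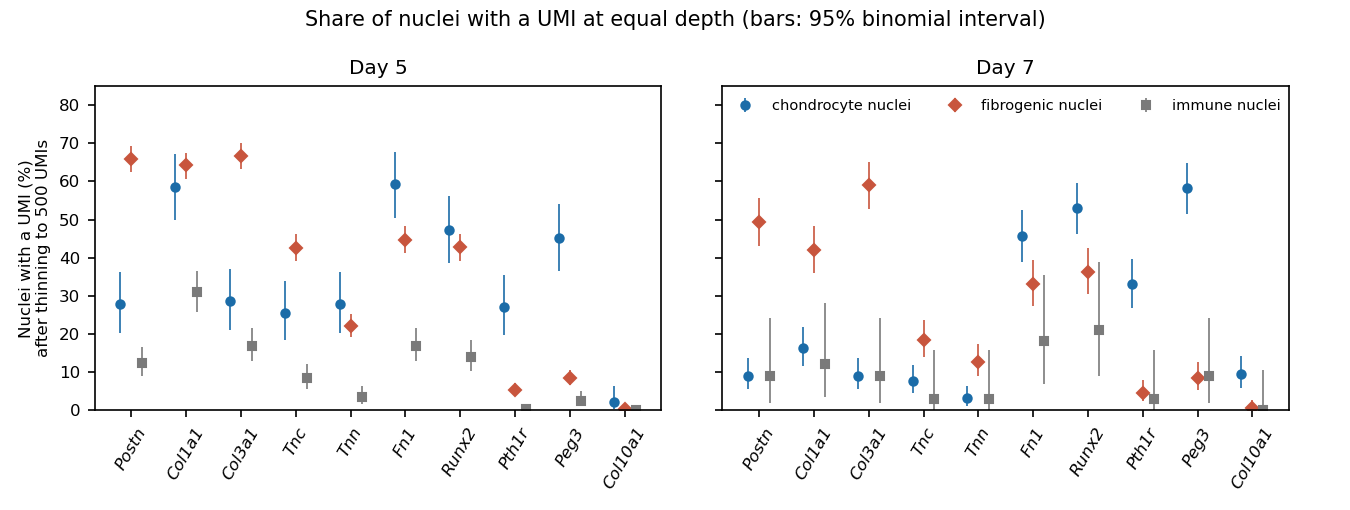
Share of chondrocyte, fibrogenic and immune nuclei (%) with a UMI of each gene after thinning to 500 UMIs, at day 5 and day 7, with exact 95% binomial intervals. Postn is at 27.8% of chondrocyte nuclei at day 5 and 9.05% at day 7, and Peg3 at 45.1% and 58.4%. Postn and Col3a1 were among the genes that chose the fibrogenic nuclei.

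Cartilage matrix genes outside the definition lay on both sides. Of 30 members 18 were tested, 1 was at least 2-fold higher (3.30% of all genes) and 6 at least 2-fold lower (13.6% of all genes), with a median of -0.38. Of the fibrillar collagens of cartilage, Col11a1 was at 13007 and 9732 CPM (-0.42 [-0.47 to -0.37]) and Col11a2 at 694 and 866 CPM (0.32 [0.14 to 0.50]). Col27a1, a fibrillar collagen of hypertrophic cartilage, was at 1763 and 3274 CPM (0.89 [0.79 to 1.00]).

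Lum, Fmod and Bgn, small leucine-rich proteoglycans, were among the 6 lower members. Lum was at 187 and 20.0 CPM (-3.23 [-4.26 to -2.35]), Fmod at 95.7 and 10.9 CPM (-3.13 [-4.63 to -1.94]) and Bgn at 349 and 47.2 CPM (-2.89 [-3.53 to -2.30]), and Lum and Bgn were also lower in fibrogenic nuclei, at -2.76 and -2.07. Dcn, decorin, was at 327 and 174 CPM (-0.91 [-1.26 to -0.56]), with 0.33 in fibrogenic nuclei. Susd5 was the member at least 2-fold higher, at 134 and 374 CPM (1.48 [1.13 to 1.84]).

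Enzymes that build sulfated glycosaminoglycans, the charged sugar chains of aggrecan, were mostly near the background. Of 30 members 21 were tested, with a median of -0.27. At least 2-fold higher were 0 (3.30% of all genes). At least 2-fold lower were 4 (13.6% of all genes), Chsy3, Ust, B3gat3 and Chpf2. Chst11, which sulfates chondroitin, was at 1668 and 2541 CPM (0.61 [0.50 to 0.72]) and Papss2, which makes the sulfate donor, at 1878 and 1328 CPM (-0.50 [-0.63 to -0.37]).

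Among chondrocyte transcription factors 12 of 22 were tested. At least 2-fold higher were 0 (3.30% of all genes) and at least 2-fold lower was 1 (13.6% of all genes). Sox9, the master factor of chondrogenesis, was at 357 and 185 CPM (-0.95 [-1.29 to -0.61]), with -0.86 in fibrogenic nuclei and -0.20 at equal depth per nucleus. Its partners were at 1753 and 2370 CPM for Sox5 (0.44 [0.32 to 0.55]) and at 4994 and 3912 CPM for Sox6 (-0.35 [-0.43 to -0.28]). The 1 lower factor was Creb5, at 316 and 49.0 CPM (-2.69 [-3.32 to -2.11]). Zbtb20, a zinc finger repressor, was at 4902 and 7411 CPM (0.60 [0.53 to 0.66]), with -0.29 in fibrogenic nuclei.

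The study grouped regulators of chondrogenesis in these same nuclei into a first and a second chondrocyte core, so their directions are not independent evidence. Its cores were groups of regulons, each a factor with its target genes. Their activity was followed along an inferred order of differentiation and Acan expression. Here the RNA of the factor genes themselves was compared between days, which is another measure. All 9 genes of the first core were tested, with a median of -0.62 beside -0.55 in fibrogenic nuclei. At least 2-fold lower was 1, Nfatc2 (13.6% of all genes), and at least 2-fold higher were 0 (3.30% of all genes). Hif1a, the oxygen-regulated transcription factor, was at 680 and 427 CPM (-0.67 [-0.90 to -0.45]), with -0.61 in fibrogenic nuclei. Of 14 genes of the second core 13 were tested, with a median of 0.10. At least 2-fold higher was 1, Ets1 (3.30% of all genes), and at least 2-fold lower were 0 (13.6% of all genes). Peg3 of that core was at 1147 and 2101 CPM (0.87 [0.75 to 1.00]).

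Hypoxia and glycolysis genes had a median of 0.12, against -0.42 in fibrogenic nuclei, on 23 of 32 members. At least 2-fold higher were 2 (3.30% of all genes), Vegfa and Bnip3. At least 2-fold lower were 3 (13.6% of all genes), the glycolytic enzymes Tpi1, Ldha and Pgam1. Bnip3, a mitochondrial protein of hypoxia-induced mitophagy, was at 97.0 and 220 CPM (1.18 [0.75 to 1.62]).

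The letters ACGTG are the core of the element that hypoxia-inducible factors bind, and RefSeq promoters of this list (250 bases before to 50 after the start, GRCm38.p6) were read for them on both strands. They were present in 21 of 37 promoters of 27 members (56.8%) and in 6447 of 32851 promoters (19.6%) of all genes. The same letters were in 16.7% of promoters of cartilage matrix, 18.5% of hypertrophy and 13.5% of growth plate genes. The list was chosen as hypoxia and glycolysis genes, so its share describes the list and not these nuclei. The SOX core AACAAT, also searched, was in 20.8%, 7.41% and 5.41% of promoters of those lists, 2.70% of hypoxia and 10.7% of all promoters. The promoters of Bnip3, higher at day 7, and of Slc2a1, the glucose transporter, at 47.8 and 56.3 CPM, are shown as examples of members with a match, with the matching letters in capitals. In Bnip3 (chr7:138909457-138909756, minus strand) matches on both strands overlap in CACGTG, and Slc2a1 (chr4:119108495-119108794, plus strand) has 1 match.
Bnip3: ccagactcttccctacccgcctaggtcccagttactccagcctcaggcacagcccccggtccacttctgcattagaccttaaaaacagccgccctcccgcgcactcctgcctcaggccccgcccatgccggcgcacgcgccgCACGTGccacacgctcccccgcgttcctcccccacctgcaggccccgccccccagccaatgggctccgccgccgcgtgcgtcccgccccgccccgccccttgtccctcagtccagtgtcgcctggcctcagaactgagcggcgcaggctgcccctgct
Slc2a1: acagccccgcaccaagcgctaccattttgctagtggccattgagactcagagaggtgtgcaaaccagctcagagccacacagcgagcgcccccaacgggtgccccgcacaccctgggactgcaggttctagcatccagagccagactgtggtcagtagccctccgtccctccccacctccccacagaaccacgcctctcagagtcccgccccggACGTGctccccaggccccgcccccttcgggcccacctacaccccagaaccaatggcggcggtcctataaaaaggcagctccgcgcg
A match describes the letters and not a bound site. For Vegfa the promoter at the first start (chr17:46032328-46032627, minus strand) held no match and that at an internal start (chr17:46025114-46025413) held 1.

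Cell cycle genes were lower at day 7 in chondrocyte and in fibrogenic nuclei. The list also holds Cdkn1a and Cdkn1c, which encode inhibitors of the cycle. Of 29 members 15 were tested, 15 were lower and 9 at least 2-fold lower (13.6% of all genes). The medians were -1.05 and -1.23 in the 2 classes. Top2a, the topoisomerase of dividing cells, was at 125 and 47.2 CPM (-1.40 [-2.09 to -0.76]) and Mki67 at 59.8 and 20.0 CPM (-1.58 [-2.68 to -0.61]). After thinning, 39.1% of chondrocyte nuclei at day 5 and 16.3% at day 7 had a UMI of any gene of the list, against 15.6% and 27.3% of immune nuclei (75.2%, 44.8%, 52.8% and 54.5% before thinning). The day 7 share (interval 11.7 to 21.8%) was below that of immune nuclei. The immune share rests on 9 of 33 nuclei (interval 13.3 to 45.5%), and the 2 intervals overlap.

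Within each library the chondrocyte nuclei were ranked by the UMI share of the defining genes and cut into 3 ranges of equal size. The lowest range held 45 nuclei at day 5 and 74 at day 7, and the ranges are not cell types. Fibrogenic genes summed to 27272, 16918 and 14361 CPM from the lowest to the highest range at day 5 and to 11294, 6713 and 5655 CPM at day 7, and 23 and 22 of 25 were lower in the highest range than in the lowest. Of all genes 41.8% at day 5 and 43.6% at day 7 were higher in the highest range. Cell cycle genes summed to 2800, 1986 and 897 CPM at day 5 and to 1318, 789 and 397 CPM at day 7, and were lower in the highest range in 14 and 15 of 15.

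Hypoxia genes went the other way, with 3277, 4008 and 4987 CPM at day 5 and 2977, 4444 and 4826 CPM at day 7, and 21 and 22 of 23 were higher in the highest range. Cartilage matrix genes outside the definition summed to 12198, 24062 and 30855 CPM at day 5 and to 13386, 18453 and 25320 CPM at day 7. Of 18 members 12 at day 5 and 11 at day 7 were higher in the highest range, and 6 and 7 were lower. Over all chondrocyte nuclei Col11a1 made up most of the sum of this list on both days. Summed hypertrophy genes were highest in the highest range at day 5, at 3633, 3252 and 6709 CPM. At day 7 they were highest in the middle range, at 5220, 8032 and 6410 CPM. Of 17 members 13 at day 5 and 11 at day 7 were higher in the highest than in the lowest range. Col10a1 was at 17.8, 24.0 and 388 CPM at day 5 and at 93.9, 206 and 301 CPM at day 7. Bmp6 was at 92.5, 497 and 1199 CPM at day 5 and at 416, 1320 and 715 CPM at day 7. Median depth of the ranges was 4645, 5150 and 3772 UMIs at day 5 and 1868, 1661 and 1598 at day 7. Between 2 and 24 nuclei a range lay within 10% of a boundary.

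**Figure D5:**
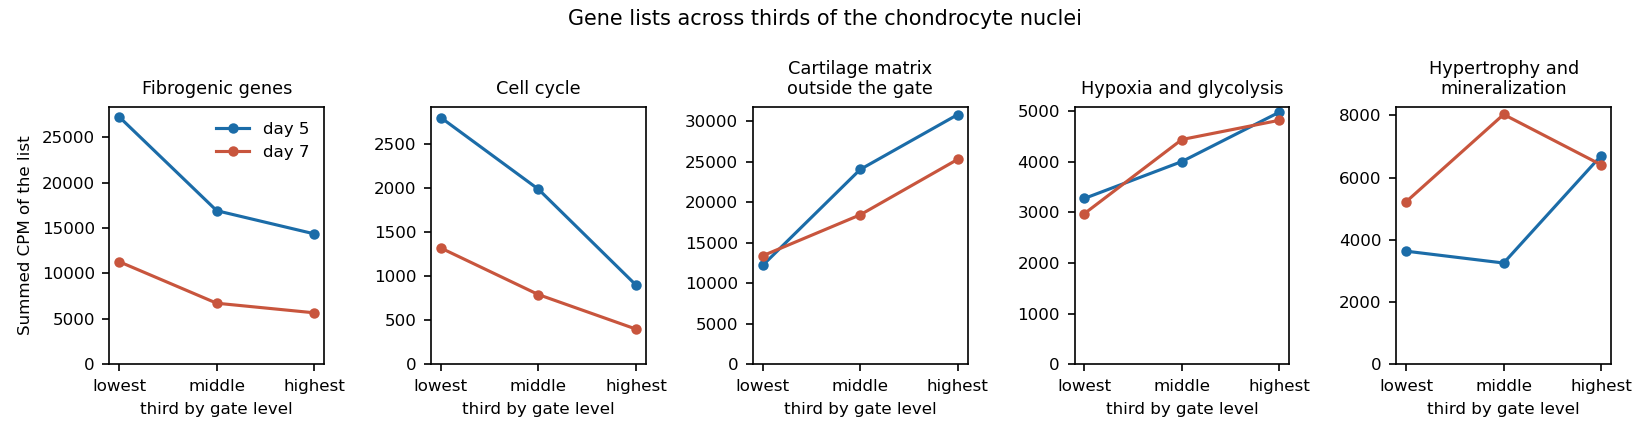
Summed CPM of gene lists in chondrocyte nuclei ranked by the UMI share of the 5 defining genes and cut into 3 ranges of equal size, for day 5 and day 7. Fibrogenic genes go from 27272 to 14361 CPM at day 5 and from 11294 to 5655 CPM at day 7.

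Nuclei with a Col10a1 UMI were set beside the other chondrocyte nuclei, a split made after the values were seen. They were 13 of 133 at day 5 (9.77%, interval 5.31 to 16.1%) and 36 of 221 at day 7 (16.3%, 11.7 to 21.8%), and they were deeper, with medians of 9155 against 4180 UMIs and 2464 against 1598 UMIs. Bmp6 was at 1363 CPM in them and 411 in the others at day 5, and at 2173 and 382 CPM at day 7. Runx2 was at 3341 and 1665 CPM at day 5 and at 5364 and 2462 CPM at day 7.

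Pth1r was at 1443 against 408 CPM at day 5 and 1552 against 725 CPM at day 7, and Ibsp at 499 against 234 CPM and 457 against 104 CPM. Phex differed between days, at 8.91 against 59.3 CPM at day 5, on 1 UMI in the nuclei with Col10a1, and at 509 against 96.6 CPM at day 7. Matn3 was at 1292 against 979 CPM at day 5 and at 448 against 1100 CPM at day 7, and Sox6 at 5577 against 4892 CPM and 2070 against 4403 CPM. Ucma, a matrix protein of immature chondrocytes, was at 44.5 against 68.7 CPM at day 5, on 5 and 44 UMIs, and had 0 of its 37 day 7 UMIs in nuclei with Col10a1.

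Across all genes, those with the largest ratios in each direction were named among genes with at least 50 CPM on the higher day. On the higher side they included Pla2g10os, AY036118, Ncam2, Taco1, Pde11a, Pank1, Crispld1, Nrep, Lrp1b, Usp53 and Catspere2, of which AY036118, Taco1, Pde11a and Lrp1b were also at least 2-fold higher in fibrogenic nuclei. Pank1, a pantothenate kinase of coenzyme A synthesis (chr19:34806940-34879455), was at 21.3 CPM in 12 nuclei at day 5 and 256 CPM in 50 nuclei at day 7 (3.59 [2.84 to 4.44]), with -0.36 in fibrogenic nuclei. Pde11a, a cyclic nucleotide phosphodiesterase, was at 25.2 and 352 CPM (3.80 [3.12 to 4.57]), with 1.16 in fibrogenic nuclei. Of the day 7 UMIs of Ncam2 63.4% lay in 1 nucleus. Pla2g10os is antisense to Pla2g10 and AY036118 overlaps a ribosomal RNA gene, so their counts are uncertain.

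On the lower side were Htr1f, Dusp1, Lgals1, Gpc3, AC160336.1, Crip1, Mif, Tnfaip6, S100a11, Mdga2, Cox6a1 and Sncaip, and 10 of the 12 were also at least 2-fold lower in fibrogenic nuclei. Gpc3, the heparan sulfate proteoglycan glypican 3 (chrX:52272426-52613950), was at 351 CPM in 30 nuclei at day 5 and 10.9 CPM in 4 nuclei at day 7 (-5.01 [-6.47 to -3.87]), with 0.37 in fibrogenic nuclei, and 23.9% of its day 5 UMIs lay in 1 nucleus. Tnfaip6, a hyaluronan-binding protein of inflamed matrix, was at 242 and 14.5 CPM (-4.06 [-5.29 to -3.05]), with -1.29 in fibrogenic nuclei.

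The few chondrocyte nuclei of the earlier libraries differed from each other. The 1 uninjured nucleus held 6 Acan and 2 Hapln1 UMIs and 0 of Col2a1 and Sox9 among 703 UMIs, so that it rests on 2 of the 5 defining genes. The 3 day 3 nuclei together held Col2a1 at 1592 CPM, Acan at 1437 CPM, Sox9 at 311 CPM and Postn at 3844 CPM on 25757 UMIs.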

How the data were processed

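Single-nucleus RNA-seq was measured in 6 libraries of mouse periosteum and callus. The authors deposited, for each library, raw UMI counts per gene and barcode, not normalized, with separate lists of genes and barcodes. Per the headers of the deposited counts they were made with Cell Ranger (6.0.0 for uninjured replicate 1, day 5 and day 7, 7.1.0 for the other libraries). The processing notes and the study name the mouse build mm10, while a protocol label names a human reference, and the gene identifiers are those of mouse. Strand use in counting is not given in the sources used here.

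Counts were limited to 30406 genes listed for every library. Of 13551 barcodes, a barcode was kept if it held 200 to 5000 genes and if mitochondrial UMIs stayed below 2% and UMIs of ribosomal proteins below 1.5%. Scrublet (expected rate 6%) marked 5 day 5 and 14 day 7 nuclei as doublets, 0.206% and 1.04%, and they were kept. Fibrogenic nuclei were chosen outside the chondrocyte definition with the same limits, and immune nuclei had at least 2 Ptprc UMIs. UMIs were summed over nuclei and scaled to CPM with exact Poisson intervals. Ratios of day 7 to day 5 have exact conditional binomial intervals, and at least 2-fold was the limit for a call. No test was run, since days 5 and 7 have 1 library each and nuclei are not replicates. Nothing in the labels says that libraries of a group came from separate days. The ratio interval had a median half-width of 0.87 on the log2 scale for genes with 40 to 80 UMIs and 0.15 above 1000 UMIs.

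Named genes were the 12 largest day 7 to day 5 ratios in each direction (at least 40 UMIs, at least 50 CPM on the higher day, interval excluding equality, without mitochondrial, ribosomal protein, Gm and Rik genes) and the 15 largest ratios to fibrogenic nuclei, and 1 gene so named is not reported here. The nuclei, gene lists and comparisons were chosen with earlier results of these data known. Alternatives changed the minimum of defining UMIs and their share, the mitochondrial, ribosomal and gene limits, doublets, muscle nuclei in the denominator, the scaling, the weighting of nuclei, the depth, the low-count filter and the uninjured and day 3 libraries kept. Scripts were tested on simulated data. Coordinates follow GENCODE mouse annotation on GRCm38. Software was Python 3.11.15, numpy 2.4.6, scipy 1.17.1, pandas 2.3.3, scanpy 1.11.5 and matplotlib 3.10.9.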

Additional observations from a re-analysis of the deposited data

Results flagged for a closer look

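The counting intervals of the day 7 to day 5 log2 ratio lay on opposite sides of 0 in chondrocyte and fibrogenic nuclei for some genes. These were 12 of the 195 tested members of all lists together and 73 of all 4853 genes tested. The lists were written with earlier results of these data known, and the difference between the 2 classes was not tested. Lower in chondrocyte and higher in fibrogenic nuclei were the protease gene Adamts18 (-1.98 and 1.76), the thrombospondin gene Thbs2 (-1.40 and 0.24), Matn2 (-1.002 and 0.30), Dcn (-0.91 and 0.33) and Fgfr2 (-0.40 and 0.41). Higher in chondrocyte and lower in fibrogenic nuclei were Mef2c (0.19 and -0.24), Col11a2 (0.32 and -0.94), Bmpr2 (0.35 and -0.24), Igf1r (0.37 and -0.22), Zbtb20 (0.60 and -0.29), Pth1r (0.68 and -0.67) and Runx2 (0.68 and -0.53).

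Outside the comparisons, 29 UMIs of an added EGFP sequence were found in 24 of 655 barcodes of uninjured replicate 1, whose label gives C57BL6, and 0 in the chondrocyte nucleus of that library. EGFP had 0 UMIs in uninjured replicate 2, day 3 replicate 2 and day 5.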

How the results depend on the processing

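No paired analysis was possible because days 5 and 7 have 1 library each and the values come from no test. The day 5 share was 3.26% with a defining share of at least 1%. The day 7 share was 13.5% with at least 10 defining UMIs, 10.7% with a share of at least 1%, 9.35% without the ribosomal limit and 19.5% without muscle nuclei. With 1 library left out the uninjured mean ranged from 0 to 0.155% and the day 3 mean from 0 to 0.174%. Genes at least 2-fold higher numbered 284 with TMM, 53 after thinning (781 genes tested), 279 with at least 20 UMIs and 82 with at least 100, beside 160. Genes at least 2-fold lower numbered 398 with a share of at least 1%, 422 with TMM, 93 after thinning, 1238 with at least 20 UMIs and 221 with at least 100, beside 661. Under TMM the medians were -0.14 for cartilage matrix, 0.65 for growth plate, 0.78 for hypertrophy, -0.67 for fibrogenic and -0.82 for cell cycle genes. With a share of at least 1% they were -0.50 for cartilage matrix, 0.41 for hypertrophy, -1.29 for fibrogenic and -0.82 for cell cycle genes. Fibrogenic genes had -0.99 without the ribosomal limit, -1.12 as a mean of per-nucleus values and -1.52 after thinning, and cell cycle genes -1.50 as a mean of per-nucleus values. After thinning the direction turned for osteoblast genes (0.54), second-core factors (-0.14), sex-linked genes (-0.67), Ihh (-0.25) and Npr2 (-0.055), and fewer genes were then tested. Thinning is random, and the osteoblast value rested on 2 genes, the sex-linked value on 1 and that of Ihh on few UMIs. Of 687 recomputed ratios of single genes between days, 614 stayed within their counting error. This count includes settings that could hardly move a ratio. The low-count filters change only which genes are tested, and a mitochondrial limit of 5% kept the same nuclei. Leaving the defining genes out of the total gave a median log2 ratio over all genes of -0.211 beside -0.210. Depth limits the values of low genes, and at equal depth 781 genes were tested in place of 4853.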

Other observations

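Matrix proteases and their inhibitors, clock genes and sex-linked genes were measured in the chondrocyte nuclei as well. Of 25 protease genes 14 were tested, with a median log2 ratio of -0.68 beside -0.13 in fibrogenic nuclei. At least 2-fold higher at day 7 were 0 (3.30% of all genes) and at least 2-fold lower were 6 (13.6% of all genes). Mmp14, a membrane-bound collagenase, was at 154 CPM at day 5 and 38.1 CPM at day 7. Mmp13, the collagenase of hypertrophic cartilage, had 10 and 16 UMIs and was not tested. Of 19 clock genes 9 were tested, with a median of -0.30. Of these 0 were at least 2-fold higher or lower (3.30% and 13.6% of all genes). Of 9 stem and progenitor genes 2 were tested, and Prrx1, a limb mesenchyme factor, was at 571 and 272 CPM.

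Epas1, which encodes an oxygen-regulated transcription factor, had 3 UMIs at day 5 and 27 at day 7, below the limit for testing. It is named here after its values were seen. The sex-linked genes, in pools of males and females, had a median of 0.80 in chondrocyte and 0.77 in fibrogenic nuclei, with Uty at 65.1 and 113 CPM and Xist at 1799 and 1231 CPM in chondrocyte nuclei. Whether the pools differed in the share of males was not tested.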
